A study of Arabidopsis thaliana with 2 samples.

Results

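FLC, its 5 closest relatives FLM, MAF2, MAF3, MAF4 and MAF5, and their partner SVP are MADS-box transcription factors that hold back flowering in Arabidopsis thaliana. They were taken by gene ID, 7 of the 33557 genes in each deposited table: AT5G10140 (FLC), AT1G77080 (FLM), AT5G65050 (MAF2), AT5G65060 (MAF3), AT5G65070 (MAF4), AT5G65080 (MAF5) and AT2G22540 (SVP). All 7 were found in both tables. The RNA came from whole Col0 seedlings with the arp6-1 mutation that had spent 10 long days at 17 °C. They were collected at the 15 min time point, counted from ZT1 (1 h after lights on), having been kept at 17 °C without a shift. All samples analysed belong to this group, which has a replicate 1 and a replicate 2. Separate cultures are not stated for them, and what differs between these samples may be technical. No wild type, other temperature or other time was analysed here, and whole seedlings mix all organs, so that fewer cells of a type and less RNA per cell cannot be told apart.

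FLC represses the flowering activators FT and SOC1, and a long cold period silences it through Polycomb proteins, which is how winter prepares the plant to flower. SVP binds DNA together with FLC or with FLM, and the pair of SVP and FLM is known for delaying flowering at cool ambient temperature. MAF2 to MAF5 are tandem copies that also repress flowering, MAF2 being known for preventing flowering after short cold spells. ARP6 is a subunit of the SWR1 complex, which places the histone variant H2A.Z in nucleosomes, and is known as a requirement for full FLC transcription.

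The relatedness of the genes, on which the separation of their reads rests, is visible at the start of their coding sequences. The 60 bases that begin the MADS box are shown for each gene, 5′ to 3′ on the coding strand of the reference genome TAIR10.1, with capitals marking bases that differ from FLC.
FLC: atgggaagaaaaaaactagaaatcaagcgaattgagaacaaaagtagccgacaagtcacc
FLM: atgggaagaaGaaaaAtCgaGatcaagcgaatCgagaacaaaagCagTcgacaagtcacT
MAF2: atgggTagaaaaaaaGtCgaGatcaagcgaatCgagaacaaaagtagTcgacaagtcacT
MAF3: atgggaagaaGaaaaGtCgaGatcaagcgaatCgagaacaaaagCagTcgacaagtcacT
MAF4: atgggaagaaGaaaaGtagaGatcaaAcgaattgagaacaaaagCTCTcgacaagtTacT
MAF5: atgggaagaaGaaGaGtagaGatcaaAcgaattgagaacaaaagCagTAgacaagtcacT
SVP: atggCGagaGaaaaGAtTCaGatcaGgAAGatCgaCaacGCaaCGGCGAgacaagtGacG
In TAIR10.1 these are chr5:3179280-3179339 on the minus strand for FLC, and on the plus strand chr1:28955679-28955738 for FLM, chr5:25982415-25982474 for MAF2, chr5:25987527-25987586 for MAF3, chr5:25992310-25992369 for MAF4, chr5:25997671-25997730 for MAF5 and chr2:9580417-9580476 for SVP. All lie in the first coding exon. For MAF5 the stretch begins 21 bases after the annotated start codon, at the in-frame ATG that lines up with the other genes. FLM and the MAF genes differ from FLC at 7 to 10 of these 60 bases, and SVP at 24.

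Over the whole coding sequence, FLM and the MAF genes were 72.3% to 77.7% identical to FLC in the aligned bases, and SVP was 62.1% to 65.5% identical to any of the other 6 genes. The closest pair was MAF2 and MAF3 at 93.6%, followed by FLM and MAF3 at 89.7%. The longest unbroken run shared by 2 members was 61 bases, between FLM and MAF3, and MAF2 shares 59 bases with MAF3. Against a read length of 100 bases, no 100-base window in any annotated transcript of FLM, SVP or the MAF genes was found elsewhere in the genome or in a transcript of another gene. With windows of 50 bases, 2.66% of those of MAF3, 0.374% of those of MAF2 and 0.250% of those of FLM occurred in another member. None of those of MAF4, MAF5 or SVP did. Only exact matches were searched for, so the placing of reads with mismatches was not tested. FLC differed: 44.4% of its 100-base windows also lie in AT5G01675, a non-coding RNA annotated on the opposite strand across the same region. That transcript has no row in the tables, and the strand setting of the counting is not given in the sources used here, so reads from FLC and from the antisense RNA cannot be told apart in the FLC count.

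The depth was 20249142 counts in replicate 1 against 12410991 in replicate 2. ARP6, the mutated gene, had 7 counts in each library; its span overlaps another gene. The libraries stood apart in genes of water stress: the 4 marker genes RD29A, RD29B, RAB18 and COR15A summed to 55.6 TPM in replicate 1 and 4621 TPM in replicate 2. Phloem companion cell markers (SUC2, APL and FTIP1, 3 of 3 lower in replicate 1 by the binomial test on counts) summed to 93.1 and 219 TPM, root markers to 97.8 and 69.8 TPM with 3 of 4 tested higher in replicate 1, and shoot meristem markers to 63.3 and 57.2 TPM, with WUS at 0 counts in both libraries and CLV3 at 0 and 1. The 4 leaf mesophyll markers summed to 13633 and 13421 TPM. By the same binomial test, 32.1% of all tested genes were higher and 32.1% lower in replicate 1. Calls of this kind were therefore common between these libraries, in either direction. The part of these marker differences in the results that follow was not tested.

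The genes were described in 3 units. CPM are the deposited counts scaled to a common library total, with no correction for gene length. Computed TPM corrects the counts for the summed length of all annotated exons of a gene. The authors' TPM is their own length-corrected value. Depth sets the precision, and 3 counts, the most that a count of 0 allows, are 0.148 CPM in replicate 1 and 0.242 CPM in replicate 2.

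FLM, the partner of SVP at cool temperature, had the most counts of the 7 genes in both libraries. It had 808 counts (exact 95% Poisson interval 753 to 866) in replicate 1 and 585 (539 to 634) in replicate 2, or 39.9 and 47.1 CPM. Replicate 2 was higher in CPM. MAF2 followed with 758 counts (705 to 814) and 475 (433 to 520), or 37.4 and 38.3 CPM. SVP had 707 counts (656 to 761) and 340 (305 to 378), or 34.9 and 27.4 CPM, the higher level this time in replicate 1. In both libraries these 3 genes held over 80% of the counts of all 7.

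MAF3 stood lower, with 332 counts (297 to 370) in replicate 1 and 186 (160 to 215) in replicate 2, or 16.4 and 15.0 CPM. FLC had 69 counts (53.7 to 87.3) and 91 (73.3 to 112), or 3.41 and 7.33 CPM, so that the shallower library held more reads of FLC than the deeper one. MAF4 had 26 counts (17.0 to 38.1) and 15 (8.40 to 24.7), and MAF5 11 (5.49 to 19.7) and 15 (8.40 to 24.7). Both stayed under 1.3 CPM in each library, above the level that 3 counts stand for. These intervals and limits describe counting error alone, since the labels name no molecular identifiers and PCR copies of a molecule may be counted more than once.

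The order of the genes depended on the length used. In the authors' TPM, FLM was highest at 63.1 ± 10.2 (SD, n = 2), with 55.9 in replicate 1 and 70.3 in replicate 2, followed by MAF2 at 43.0 ± 0.618, SVP at 29.4 ± 3.76, MAF3 at 18.3 ± 0.683 and FLC at 7.89 ± 4.13. The ranges of both libraries did not overlap between any of these neighbours. MAF4 at 1.24 ± 0.529 and MAF5 at 1.20 ± 0.742 overlapped and could not be ordered. In computed TPM, SVP was highest at 29.6 ± 4.61 (SD, n = 2), with 32.9 in replicate 1 and 26.4 in replicate 2. MAF2 at 19.1 ± 0.590, MAF3 at 18.3 ± 0.882 and FLM at 16.6 ± 2.20 came next, with MAF2 overlapping MAF3 and MAF3 overlapping FLM. FLC, at 7.79 ± 4.13, lay below FLM without overlap, and MAF4 at 1.29 ± 0.0355 and MAF5 at 1.22 ± 0.672 overlapped each other below FLC. FLM thus stood at percentile 82.7 by the authors' TPM among the 19519 genes that reached 10 counts in each library, and at percentile 46.9 by computed TPM among the 19433 of them with a known exon length. MAF2 stood at percentiles 75.5 and 51.2. SVP (66.0 and 64.0), MAF3 (52.3 and 49.6), FLC (29.6 and 27.0), MAF4 (3.73 and 2.52) and MAF5 (3.53 and 2.26) kept nearly the same place in both.

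**Figure D1:**
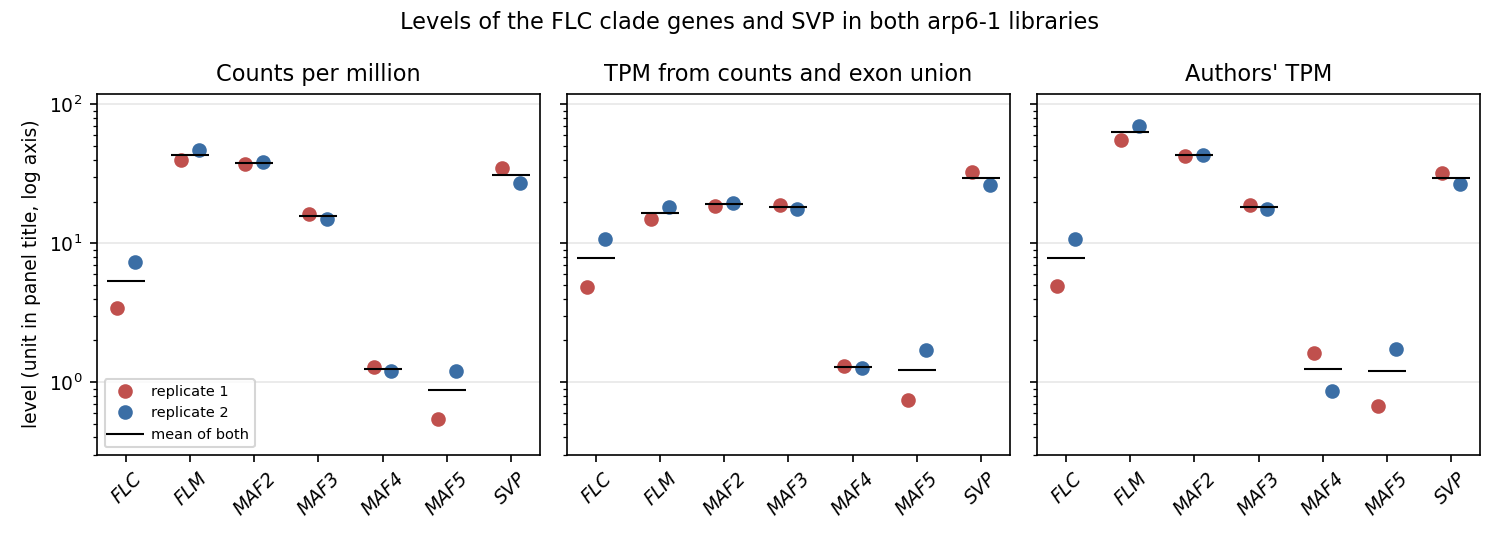
Level of each gene in replicate 1 (red) and replicate 2 (blue) on a log axis, with the mean of both as a black bar, as CPM, as TPM computed from counts and as the authors' TPM. FLM and MAF2 lead in CPM and in the authors' TPM, SVP leads in computed TPM, and MAF4 and MAF5 lie near 1 in all panels.

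The mean of the authors' TPM was 3.80 times the computed one for FLM and 2.25 times for MAF2, and 0.960 to 1.01 times for the other 5 genes. FLM and MAF2 are also the members with very long annotated transcripts. TAIR10.1 lists 11 transcripts of FLM of 722 to 4099 bases, 4 of them over 2000, and 5 of MAF2 of 845 to 3147 bases, 1 of them over 2000. No transcript of the other 5 genes exceeded 2000 bases. The summed exon length of FLM was therefore 4480 bases, 4.09 times its median transcript of 1095 bases, and that of MAF2 was 3384 bases, 3.25 times its median of 1040. Of 19391 genes compared, 0.0619% had a summed length at least 3 times the median transcript.

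Dividing CPM by the authors' FPKM gives the length at which both columns state the same level. For FLM it was 863 bases in replicate 1 and 852 in replicate 2, below its median transcript of 1095 bases. For MAF2 it was 1063 and 1119 bases, just above its median transcript of 1040 bases. As a share of the summed exon length this was 0.193 and 0.190 for FLM and 0.314 and 0.331 for MAF2, against a median over all compared genes of 0.826 and 0.834. Against the median transcript the ratio was 0.788 and 0.778 for FLM and 1.02 and 1.08 for MAF2, and the median over all compared genes was 0.873 and 0.880. When the median transcript length was used for all genes, FLM was highest at 63.2 ± 8.25 TPM (SD, n = 2), overlapping MAF2 at 57.8 ± 1.67 TPM, with SVP at 32.2 ± 5.08, MAF3 at 21.6 ± 1.08 and FLC at 8.59 ± 4.54. The ranges of FLM and MAF2 do not overlap the range of SVP in that unit. This length was chosen after the data were seen. The tables hold 1 value per gene, so the splice forms of FLM, which differ in their known effect on flowering, were not resolved.

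**Figure D2:**
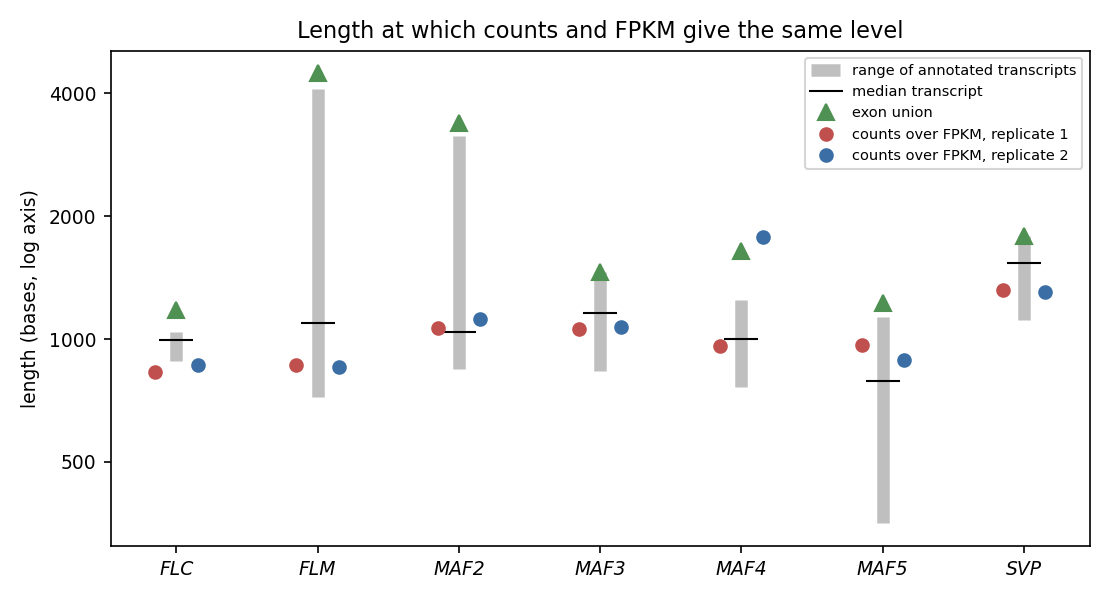
Length in bases (log axis) at which counts and the authors' FPKM give the same level, in replicate 1 (red) and replicate 2 (blue), beside the range of annotated transcripts (grey), their median (black bar) and the summed exons (green triangle). In FLM and MAF2 the summed exons, 4480 and 3384 bases, lie far above the points, and in MAF4 the points are 961 and 1774 bases.

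MAF4 was the gene whose 2 libraries were ordered alike but by very different amounts in the 2 units. Its CPM was 1.28 in replicate 1 and 1.21 in replicate 2, and its authors' TPM was 1.61 and 0.866. The length at which counts and FPKM match was 961 bases in replicate 1 and 1774 in replicate 2, while for each of the other 6 genes the 2 libraries gave lengths within 100 bases of each other. The gap between the log2 differences in authors' TPM and in CPM, 0.811, lay 0.871 from the median gap of all compared genes (-0.06). As large a gap was found in 2.50% of the 1002 genes with a mean count within 1.5 times that of MAF4. For FLC, FLM, MAF2, MAF3 and SVP both units gave the same sign of the difference and gaps of at most 0.0902 in size. MAF5 also had the same sign in both, with a gap of -0.196.

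The ratio of FLM to SVP transcripts was higher in replicate 2 in all 3 units, and its size followed the unit. It was 1.14 in replicate 1 and 1.72 in replicate 2 in counts, 1.74 and 2.63 in the authors' TPM, and 0.457 and 0.688 in computed TPM. Whether FLM or SVP is the more abundant therefore depended on the length assigned to FLM. Computed TPM divides counts by a fixed length per gene, so its change of a ratio between libraries repeats that in counts. The change of the FLM to SVP ratio was not tested. The ratio of SVP to FLC was 10.2 and 3.74 in counts, 6.45 and 2.48 in the authors' TPM, and 6.75 and 2.46 in computed TPM.

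MAF2, MAF3, MAF4 and MAF5 form an unbroken tandem row on chromosome 5, 25982254 to 26002465 in the coordinates of the files (TAIR10), 20212 bases with no other gene between them in the tables. They lie on the same strand with gaps of 1102, 927 and 1329 bases. In replicate 1, CPM was lower at each step along the row from MAF2 to MAF5, at 37.4, 16.4, 1.28 and 0.543. In replicate 2 it was 38.3, 15.0, 1.21 and 1.21, with MAF4 and MAF5 at the same 15 counts. MAF3 exceeded MAF4 by 12.8-fold and 12.4-fold in CPM in replicates 1 and 2, and by 11.6-fold and 20.5-fold in the authors' TPM. MAF2 exceeded MAF3 by 2.28-fold and 2.55-fold in CPM and by 2.27-fold and 2.44-fold in the authors' TPM, but in computed TPM the ratio was 0.988 and 1.10. Summed over the 4 genes the row had 55.7 CPM in each library and 63.6 and 63.8 in the authors' TPM.

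**Figure D3:**
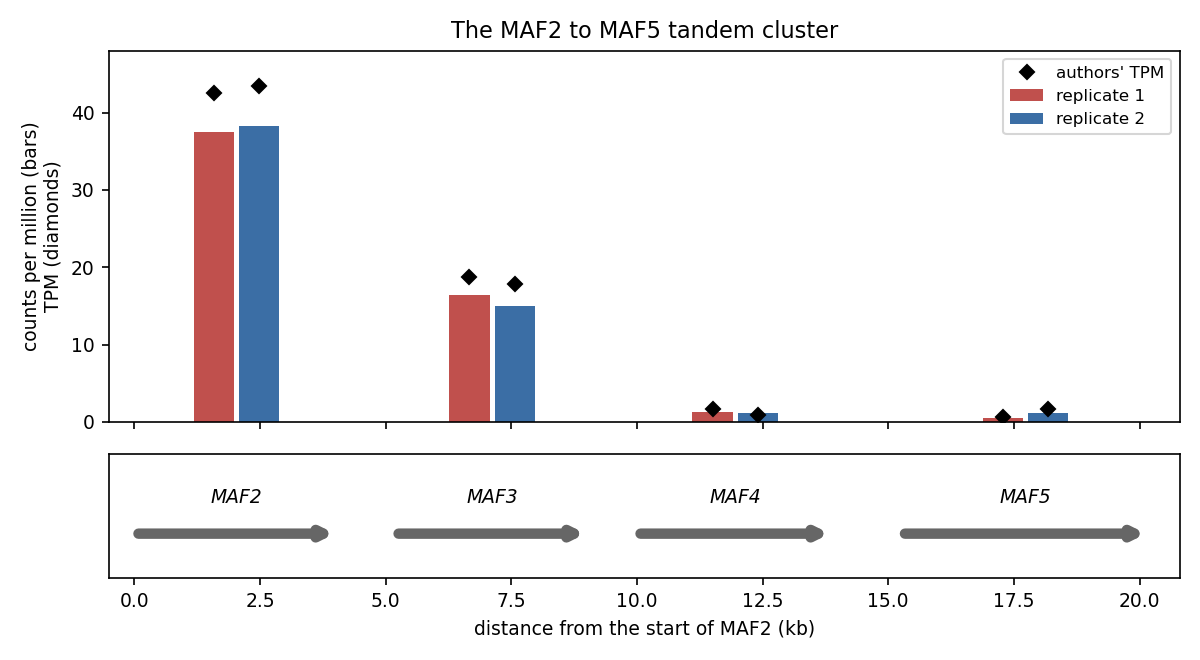
The tandem row of MAF2 to MAF5, with distance from the start of MAF2 in kb along the bottom, arrows for the gene spans and bars for CPM in replicate 1 (red) and replicate 2 (blue), with the authors' TPM as diamonds. MAF2 and MAF3 carry nearly all of the signal, and MAF4 and MAF5 lie near the bottom of the axis in both libraries.

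The genes outside the row were also measured on both sides. AT5G65040, 3836 bases before MAF2, had 115 and 102 counts, and AT5G65090, 1551 bases after MAF5, had 107 and 40, so both flanking genes had more counts than MAF4 or MAF5 in each library.  The other members lie apart from the row: FLC on chromosome 5 at 3173497 to 3179448, FLM on chromosome 1 at 28955637 to 28960096 and SVP on chromosome 2 at 9579874 to 9583893. No member's span overlaps another gene in the tables.

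Between the libraries, 3 of the 7 genes passed a test on their counts. Each gene was tested with the two-sided exact binomial test, scaled by TMM and adjusted by Benjamini-Hochberg over the 19519 genes that reached 10 counts in each library, among them all 7. The test compares these libraries only and covers counting error only. Of all tested genes 64.2% passed, 32.1% higher in replicate 1 and 32.1% lower, and 3 of 7 is no more than that share. FLC was 2.26-fold lower in replicate 1, a log2 difference of -1.18 (95% Clopper-Pearson counting interval -1.65 to -0.709, adjusted p = 1.13e-06). FLM was 1.24-fold lower in replicate 1, at -0.31 (-0.467 to -0.155, adjusted p = 0.000179). SVP was 1.21-fold higher in replicate 1, at 0.28 (0.0902 to 0.470, adjusted p = 0.00592).

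When the spread of 9 reference genes was allowed for, 1 of the 7 genes, FLC, passed, lower in replicate 1 (edgeR exact test, adjusted p = 0.00704). That spread was a coefficient of variation of 13.1%, against 38.8% over all tested genes, and comes from these same libraries. Of all tested genes 23.8% passed this edgeR test, 11.8% higher and 11.9% lower in replicate 1. The 1 of 7 is no more than that share. FLM and SVP did not pass that test (adjusted p = 0.473 and 0.540). MAF5 had a log2 difference of -1.22 in counts, as large as that of FLC, but on 11 and 15 counts its interval was -2.49 to -0.00440 and its exact binomial test missed the threshold (adjusted p = 0.0608). MAF2 at -0.10 (-0.270 to 0.0655), MAF3 at 0.06 (-0.205 to 0.325) and MAF4 at 0.02 (-0.954 to 1.04) did not pass the exact binomial test (adjusted p = 0.290, 0.741 and 1). The intervals of MAF2 and MAF3 reach no further than 0.325 from 0, while that of MAF4 reaches to 1.04 and bounds little. The median of the 7 log2 differences was -0.10, beside a median of 0.00479 over all tested genes, of which the central 50% lay between -0.42 and 0.45 and the central 95% between -1.97 and 1.62. FLC stood at percentile 6.95 of that distribution. The water stress markers (4 of 4) and phloem markers (3 of 3) were lower in replicate 1 as well by the exact binomial test. With the spread of the reference genes, 4 of 4 and 2 of 3 passed, lower in replicate 1. The part of these markers in the difference of FLC was not tested. The part of antisense reads in the FLC count, and of the stranded or unstranded kit of each library, was not tested either.

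**Figure D4:**
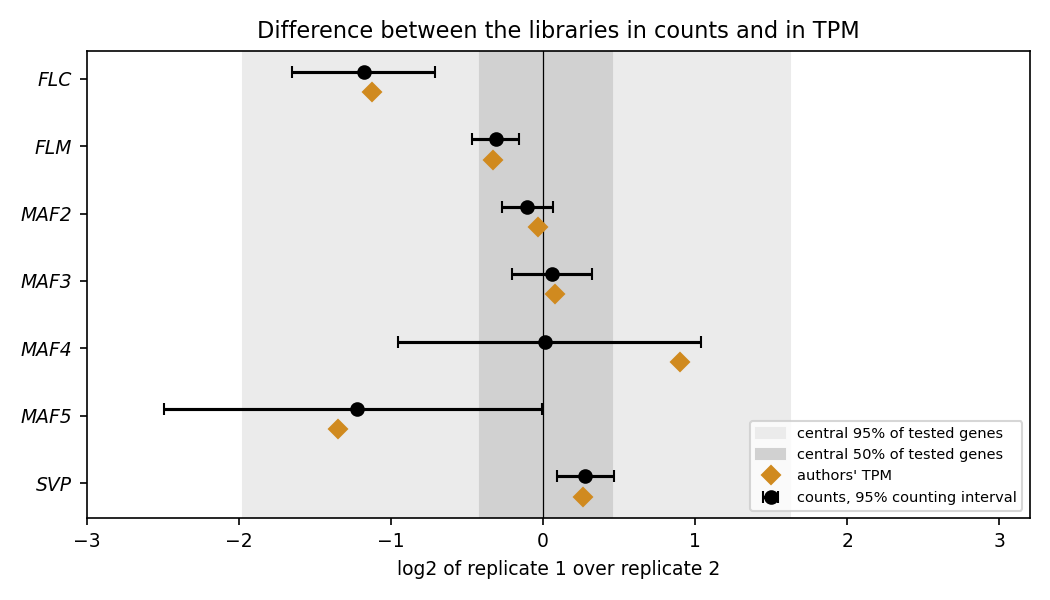
Log2 of replicate 1 over replicate 2 for each gene, from counts with the 95% counting interval (black) and from the authors' TPM (orange), over the central 50% and 95% of all tested genes (grey bands). FLC and MAF5 lie near -1.2 in counts, outside the central 50%, and for MAF4 the authors' TPM lies at 0.90 and the counts at 0.02.

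The direct neighbours of FLC had differences of the other sign. AT5G10130, 968 bases from FLC, had 83 counts in replicate 1 and 14 in replicate 2, a log2 difference of 1.79 (0.964 to 2.72). AT5G10150, 2534 bases away on the other side, had 688 and 186 counts, a log2 difference of 1.11 (0.874 to 1.35), and both passed the exact binomial test (adjusted p = 3.8e-06 and 2.37e-22). FLC was therefore the 1 gene of these 3 that was lower in replicate 1. FLM lay between AT1G77060, higher in replicate 1 (log2 difference 0.69, 0.479 to 0.895), and AT1G77090, which like FLM was lower in replicate 1 (-0.27, -0.370 to -0.160). The genes on both sides of SVP, AT2G22530 (-0.39, -0.688 to -0.0884) and AT2G22560 (-0.50, -0.740 to -0.261), were lower in replicate 1, whereas SVP was higher.

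Known regulators of FLC came next. For this list and those that follow, 32.1% of all tested genes were higher and 32.1% lower in replicate 1 by the binomial test. With the spread of the reference genes, 11.8% were higher and 11.9% lower. Of 14 activators, comprising the FRI complex that raises FLC transcription, the PAF1 elongation complex and histone methyltransferases, 1 was higher and 5 were lower in replicate 1 by the binomial test, and 0 passed in either direction with the spread of the reference genes. By computed TPM the PAF1 subunit VIP4 (44.5 ± 1.40 TPM) and its partner ELF7 (32.3 ± 1.27 TPM) were the highest of the list, while FRI (1.39 ± 0.352 TPM, span overlapping another gene) and FES1 (4.28 ± 0.227 TPM) were the lowest; these and the levels that follow are computed TPM as mean ± SD, n = 2. In the authors' TPM, SUF4, a zinc-finger activator of FLC, was highest at 32.0 in replicate 1 and 36.2 in replicate 2, against 24.6 and 23.9 for VIP4. The histone methyltransferase gene ATX1 was 1.67-fold higher and FRL1, a relative of FRI, 1.66-fold lower in replicate 1 by the binomial test. The median log2 difference of the list was -0.18.

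Of 8 genes of the autonomous pathway, which keeps FLC low, 2 were higher and 3 lower in replicate 1, and again 0 passed with the spread of the reference genes. FVE, a histone-binding protein, was the highest at 51.7 ± 13.4 TPM and was 1.41-fold higher in replicate 1. FLK, an RNA-binding protein, was the second highest at 24.6 ± 1.65 TPM. FY, an RNA 3′ processing factor, was 1.55-fold higher. FCA, the RNA-binding partner of FY, was 1.61-fold lower in replicate 1. FLD, a histone demethylase relative, was the lowest of the list at 8.12 ± 0.397 TPM. The median log2 difference was -0.13.

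The cold-induced gene VIN3, which starts the silencing of FLC in winter, had 1 count in replicate 1 and 2 in replicate 2; its span overlaps another gene. Of the other 7 vernalization and Polycomb genes, all of them tested, 1 was higher and 1 lower in replicate 1. The PHD-finger protein VEL1 was highest at 53.7 ± 3.50 TPM. VRN2, a Polycomb subunit, was 1.77-fold lower in replicate 1 and also passed with the spread of the reference genes (edgeR exact test, adjusted p = 0.0206). CLF, a histone methyltransferase, was 1.34-fold higher by the binomial test and second lowest in level at 9.60 ± 2.18 TPM. The median log2 difference was -0.06.

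The genes that FLC and SVP are known to repress went both ways. SOC1, an activator of flowering, was 3.91-fold lower in replicate 1, with 376 and 858 counts, and the floral gene SEP3 was 3.13-fold higher, with 59 and 11 counts; both passed with the spread of the reference genes (edgeR exact test, adjusted p = 6.09e-10 and 0.0135). FLC, a repressor of SOC1, was lower in the same library as SOC1. SVP was 1.21-fold higher in that library, but did not pass with the spread of the reference genes. FT had 33 and 13 counts and did not pass (log2 difference 0.57, -0.398 to 1.62). Its relative TSF had 13 and 0 counts and was not tested. Of the 6 tested genes, 1 was higher, 1 lower and 4 did not pass, with a median log2 difference of 0.12. SOC1 (48.4 ± 40.0 TPM) and SPL15 (6.80 ± 1.39 TPM), a promoter of flowering, were the most abundant, and TSF (0.666 ± 0.942 TPM) and GA20OX2, a gibberellin synthesis enzyme (1.47 ± 0.189 TPM), the least.

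Of 9 floral repressors from outside the FLC clade, 5 had a higher mean computed TPM than SVP. TOE1 (79.2 ± 3.62 TPM) and SMZ (76.2 ± 37.2 TPM), both of the AP2 family, were the highest by computed TPM, and TFL1 (1.64 ± 0.519 TPM) and the MADS-box gene AGL15 (4.76 ± 2.12 TPM) were the lowest. In the authors' TPM, SMZ had 67.9 in replicate 1 and 33.3 in replicate 2, and TEM2, a relative of TEM1, had 73.5 and 69.7. Of 8 tested genes 3 were higher and 3 lower in replicate 1, and 1 and 2 with the spread of the reference genes. TEM1, a repressor of FT, had 476 counts in replicate 1 and 882 in replicate 2 and was 3.18-fold lower in replicate 1. SNZ, a relative of SMZ, had 605 and 1105 counts and was 3.13-fold lower. SMZ itself had 1319 and 385 counts and was 2.00-fold higher in replicate 1. The median log2 difference of the list was 0.02.

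**Figure D5:**
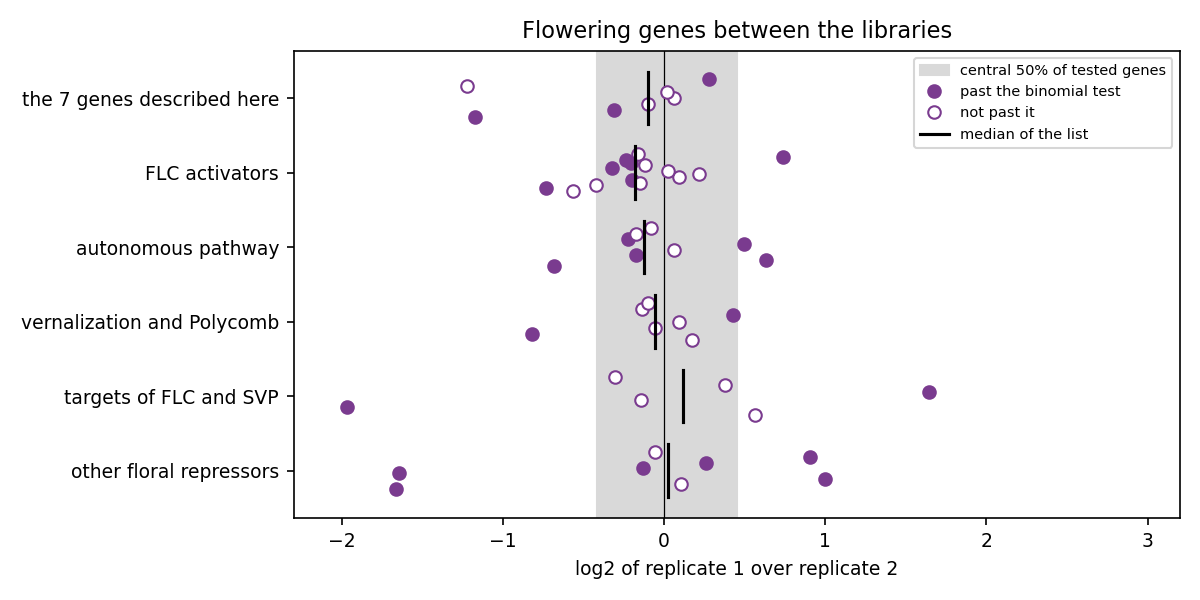
Log2 of replicate 1 over replicate 2 for tested genes of each list, filled where the gene passed the binomial test, with the median of the list as a black line and the central 50% of all tested genes in grey. FLC and MAF5 at the left of the top row lie outside that range, and SOC1 at -1.97 and SEP3 at 1.65 are the far points of their row.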

How the data were processed

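Per the labels' protocols, libraries were made with a stranded and an unstranded TruSeq kit and read as 100-base pairs; the labels do not say which library had which kit. TopHat, Trimmomatic, FastQC and Picard are named, with no version, in the submitters' processing notes, as is the build TAIR10. What counted the reads is not given in the sources used here. The deposited tables give raw counts, FPKM and TPM per gene, per the file headers. The authors' TPM equals their FPKM rescaled to 1000000, as recalculated here. The authors' counts were not normalized.

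Computed TPM used counts and summed exon lengths from the TAIR10.1 annotation, in which 32810 of 33557 gene IDs were found; 755 genes without a length were left out. Coordinates of genes are those of the files, 1-based; sequences and transcripts are from TAIR10.1 (RefSeq). Coding sequences were aligned with Biopython 1.88. TMM factors (1.02 and 0.976) came from edgeR 4.0.16 in R 4.3.3, and the binomial test from scipy 1.17.1, with an adjusted p threshold of 0.05. With 1 group, a quasi-likelihood test has no contrast. Of 10 listed reference genes, 9 reached 10 counts and gave the dispersion (coefficient of variation 13.1%, against 38.8% over all tested genes); it comes from these same libraries. The tests were checked on simulated counts. Alternatives included size factors from DESeq2 1.42.0. The 7 genes and the lists were chosen with earlier results of these data known. Named were the 7 genes, ARP6, the nearest genes, and from each list the 2 highest, the 2 lowest and the most different genes each way; FT, SNZ, SUF4 and TEM2 were added after their values were seen.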

Additional observations from a re-analysis of the deposited data

How the results depend on the processing

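With the edgeR exact test and the dispersion of the reference genes, 4636 genes passed in place of 12530, and 1 of the 7 genes in place of 3: FLM and SVP no longer passed, and FLC did. Under size factors of DESeq2, total counts, TMM over nuclear genes, and count minimums of 1 and 50, the number of the 7 genes stayed at 3 (MAF4 and MAF5 are not tested at 50) and that of all genes between 10839 and 13238. MAF2, which did not pass the test, had a log2 difference of -0.10 in counts and 0.0429 in the authors' FPKM, which is not rescaled to a common sum. On the log2 scale with a pseudocount of 1, the level of FLM was 4.13 in computed TPM, 5.47 in CPM and 5.99 in the authors' TPM. That of MAF2 was 4.33, 5.28 and 5.46 in the same units. When TPM was computed with the longest transcript of each gene, FLM was at 4.22 and MAF2 at 4.39. Of 49 alternative values of level, 32 moved by less than the SD of the 2 libraries; 14 of these come from 1 library alone and cannot exceed it. No paired analysis was possible because the labels give 1 group. MAF4 and MAF5, at 11 to 26 counts, are limited by depth.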
